A study of Mus musculus with 10 samples.

Results

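The genes described here are 34 transcripts that mark the oligodendrocyte lineage and its myelin, taken by name from the 25050 genes of a mouse brain RNA-seq count table. The genes were picked out by name, with no filter on measured values. The list itself was drawn up with earlier results of these data known. Of the 34, 33 were found by symbol, and Myrf, listed under the older name Gm98, was found by its Ensembl identifier. They were grouped by role into 4 transcription factors of the lineage, 3 precursor genes, 6 genes of newly formed cells and 20 genes of myelinating cells. Aspn was kept apart, since it encodes asporin, a matrix protein not known as a marker of an oligodendrocyte stage. The study compared whole brains of mice labelled Abcc5+/+ (wildtype) and Abcc5-/- (knockout), both on the FVB/NJ strain background, with 5 libraries in each group. The protein made from Abcc5 is a membrane pump of the ATP-binding cassette family that exports organic anions. All mice were killed with CO2, the brains were frozen on dry ice, and libraries were made from polyadenylated RNA. Age, sex, the allele's construction and whether the groups were littermates are not given in the sources used here.

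Oligodendrocytes wrap axons of the central nervous system in myelin, a compact and lipid-rich membrane. They arise from dividing precursors that persist in the adult brain. A precursor that leaves the cell cycle passes through a short newly formed stage and then switches on the structural proteins and lipid enzymes of myelin. Most members of these groups are used as markers because 1 stage transcribes them far more than the others, but several are also made by other cells. In RNA from a whole brain, fewer cells of a stage and less RNA per cell cannot be told apart.

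Library totals ran from 7731294 to 23588335 counts. A gap in depth set 3 deeper libraries (wildtype replicate 1, knockout replicates 2 and 4), from 19795743 counts upwards, apart from 7 shallower ones, which reached 11479995. Abcc5 itself had 299.2 to 325.9 CPM (counts scaled to a common library size) in wildtype and 210.7 to 226.2 CPM in knockout libraries, with an edgeR adjusted p of 6.35e-06, so the label and the transcript level went together in all 10 libraries. Knockout replicate 3 stood apart from the rest: the summed level of 10 cerebellar genes was 222.9 CPM there and 1472 to 1751 CPM in the other 9 libraries. Its summed level of 11 Hox genes, which mark the hindbrain and spinal cord, was 0.264 CPM against 7.41 to 19.3 CPM. Other knockout libraries differed in another region list. The summed level of 6 olfactory bulb genes was 125 to 148 CPM in wildtype and 90.4, 95.2, 170, 114 and 137 CPM in knockout replicates 1 to 5. Of these 6 genes, 5 had negative log2 fold changes between knockout and wildtype. At an edgeR adjusted p under 0.05, 1 of them was called lower in knockout, beside 0.964% of all genes tested. The part of tissue content in the member values was not tested. For the calls, the medians of the stages and several members of which knockout replicate 3 was the highest or lowest, values without that library are given as well. Nothing in the labels says how the libraries of a group relate to each other beyond the animal label, so p-values measure the spread between these libraries.

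No member passed the test between knockout and wildtype brains. All 34 had enough counts to be tested, and 0 had an adjusted p under 0.05 in edgeR's quasi-likelihood test, where 1.18% of the 14526 genes tested passed (0.213% higher and 0.964% lower in knockout). DESeq2's Wald test called 1 member, Olig1, beside 259 of the 14526 genes, and limma-voom called 0 members. At an unadjusted p under 0.05 edgeR picked 4 members, a share below the 14.8% of all genes. These were Olig1, Olig2 and Opalin, with higher means in knockout (3 of 34, background 6.74%), and Aspn, with a lower one. Of the 34 log2 fold changes, 18 were positive and 16 were negative, with a median of 0.0057 beside 0.0042 over all genes. The groups did not overlap for 1 member, Olig1, where the background is 4.19% in either direction and 1.54% for higher in knockout.

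The data also bound how far most of these transcripts could differ. The median absolute log2 fold change was 0.065 for the members and 0.078 for all genes, and 32 members, all but Olig2 and Aspn, lay within 0.25 of 0. So did 13140 of all 14526 genes tested. For 33 members the 95% interval of the fold change stayed within 1.5-fold either way. The exception was Aspn, which had only 13 to 56 counts per library. Mbp, the most abundant member, had an interval of the knockout against wildtype change from -8.86% to 11.1%.

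**Figure D1:**
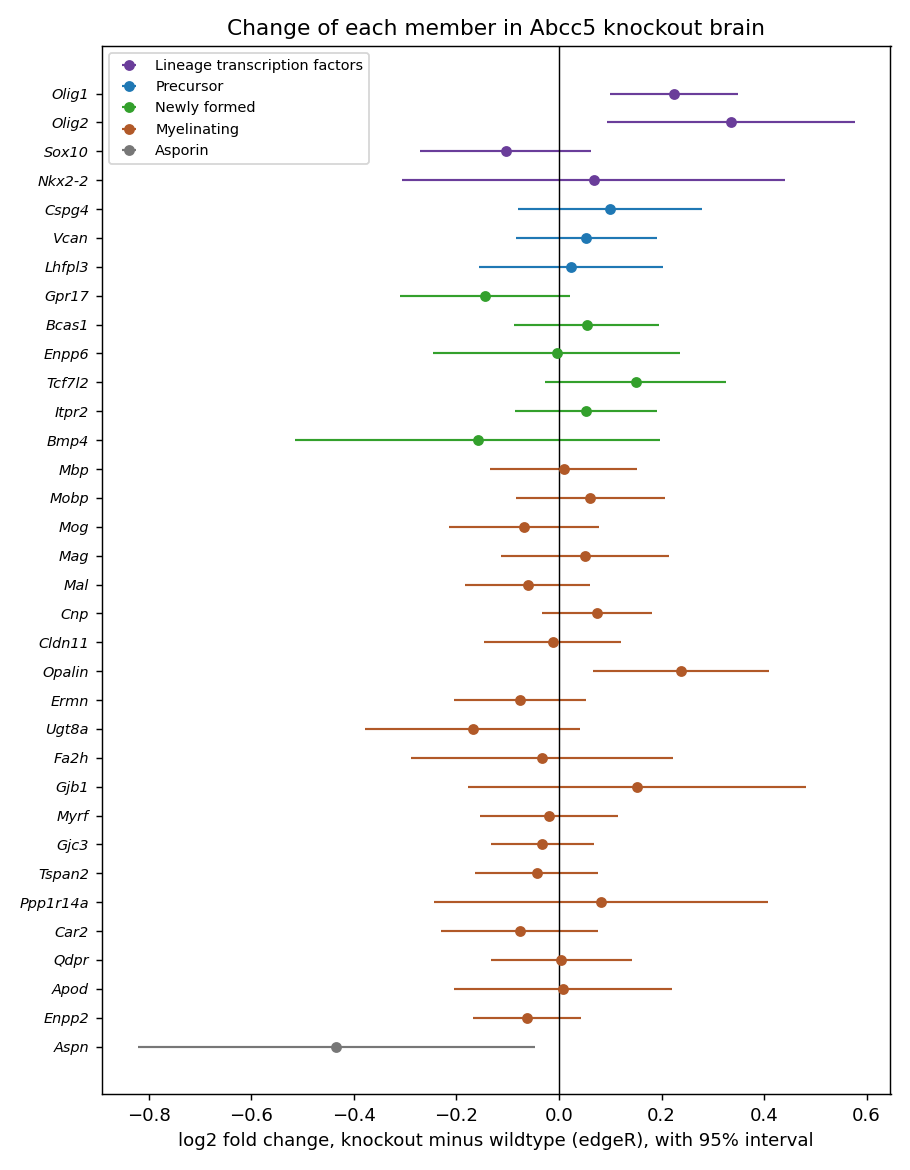
Log2 fold change of each of the 34 members, knockout minus wildtype, on the horizontal axis, with points for the edgeR estimates, bars for their 95% intervals and colours for the groups by role (5 libraries per genotype). Most points lie within 0.25 of 0, and Olig1, Olig2, Opalin and Aspn have intervals that leave out 0 before adjustment.

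Among the transcription factors, Olig1 and Olig2 had the largest positive differences next to Opalin. Both are basic helix-loop-helix factors, and OLIG2 is needed to specify the lineage. They lie close together on chromosome 16, Olig2 at 91225795 to 91228922 and Olig1 at 91270014 to 91272184 as positioned in the table, which does not name its genome build. Abcc5 is on the same chromosome, at 20331376 to 20426467. So is the myelinating member Apod, nearer to Abcc5 at 31296278 to 31314894, with a log2 fold change of 0.0072. Counts were given per gene, so no exon or UTR can be separated.

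Olig1 had 82.2, 77.4, 75.5, 84.7 and 75.0 CPM in wildtype replicates 1 to 5, and 85.2, 101.04, 89.8, 98.6 and 85.1 CPM in knockout replicates 1 to 5. Every knockout library was above every wildtype library, although knockout replicates 1 and 5 cleared wildtype replicate 4 by less than 1 CPM. The means were 79.0 ± 4.30 and 92.0 ± 7.48 CPM (SD, n = 5 each). The log2 fold change was 0.22 (SE 0.059), with a 95% interval from 7.16% to 27.4% and an edgeR adjusted p of 0.080. Over the alternative analyses the adjusted p ran from 0.038 (DESeq2's Wald test) to 0.35 (edgeR, shallower libraries only). With 1 library left out the edgeR adjusted p ran from 0.041 (without knockout replicate 3) to 0.21. The log2 difference was 0.28 within the deeper libraries and 0.15 within the shallower ones.

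Olig2 had 24.4, 21.6, 22.8, 22.5 and 19.95 CPM in the wildtype replicates, and 32.4, 33.3, 26.1, 28.1 and 19.4 CPM in the knockout replicates. Knockout replicates 1 to 4 were above all wildtype libraries, and knockout replicate 5 was below all of them. The means were 22.3 ± 1.64 and 27.9 ± 5.59 CPM (SD, n = 5 each), with a log2 fold change of 0.34 (SE 0.11) and an edgeR adjusted p of 0.18. Without knockout replicate 5 the log2 fold change was 0.42 and the edgeR adjusted p was 0.024, and without knockout replicate 2 they were 0.25 and 0.41.

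The other lineage factors did not share this pattern. Sox10, an HMG-box factor that acts through the whole lineage and drives myelin genes, had 46.3, 39.8, 40.9, 41.5 and 42.9 CPM in wildtype and 31.5, 43.9, 43.3, 39.6 and 38.2 CPM in knockout. Of the wildtype libraries 4 lay inside the knockout range, knockout replicate 1 was the lowest of all 10, and the log2 fold change was -0.10 (edgeR adjusted p 0.57). Nkx2-2, a homeobox factor that helps precursors start to differentiate, had 2.97 to 4.23 CPM in wildtype. In knockout it had 4.17, 4.15, 1.98, 4.11 and 2.93 CPM, so replicates 3 and 5 were the lowest of all 10 libraries. Its log2 fold change was 0.07 (SE 0.18), with the largest residual SD of the members, 0.34.

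The promoters of Olig2 and Opalin are shown because these genes had the 2 largest positive differences of the 34 and the RefSeq table holds a window for both. Each window is the 250 bases before the gene's start, 5′ to 3′ on the gene's strand, in the build GRCm38.p6. Olig2 lies on the plus strand at chr16:91225300-91225549, and capitals mark CATTGT, which is ACAATG on the other strand, a core motif of SOX-family factors. Opalin lies on the minus strand at chr19:41077114-41077363, and capitals mark ACAAAG, another core motif of SOX-family factors.
Olig2: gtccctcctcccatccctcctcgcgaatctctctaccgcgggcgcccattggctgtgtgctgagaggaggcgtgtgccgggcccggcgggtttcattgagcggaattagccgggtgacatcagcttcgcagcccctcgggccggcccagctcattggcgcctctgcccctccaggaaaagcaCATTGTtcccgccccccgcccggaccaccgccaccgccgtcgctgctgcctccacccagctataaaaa
Opalin: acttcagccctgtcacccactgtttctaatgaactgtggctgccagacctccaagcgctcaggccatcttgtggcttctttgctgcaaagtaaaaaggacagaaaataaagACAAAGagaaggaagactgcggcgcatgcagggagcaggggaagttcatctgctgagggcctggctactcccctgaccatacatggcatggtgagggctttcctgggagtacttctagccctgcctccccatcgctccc
The Olig2 window was 66.8% G and C and the Opalin window 54.4%. Windows were found for 25 members, 32 windows in all, since a gene can have several. On both strands, ACAAAG was in 10 of the 32 windows (31.2%) and in 16.5% of the 32851 windows of that length for all genes. ACAATG was in 5 (15.6%) against 10.7%, and CAGCTG, an E-box of the kind that basic helix-loop-helix factors bind, was in 1 (3.12%) against 13%. ACAAAG and ACAATG share their first 4 letters but cannot match at the same place, and a match is a description of letters, not a site.

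**Figure D2:**
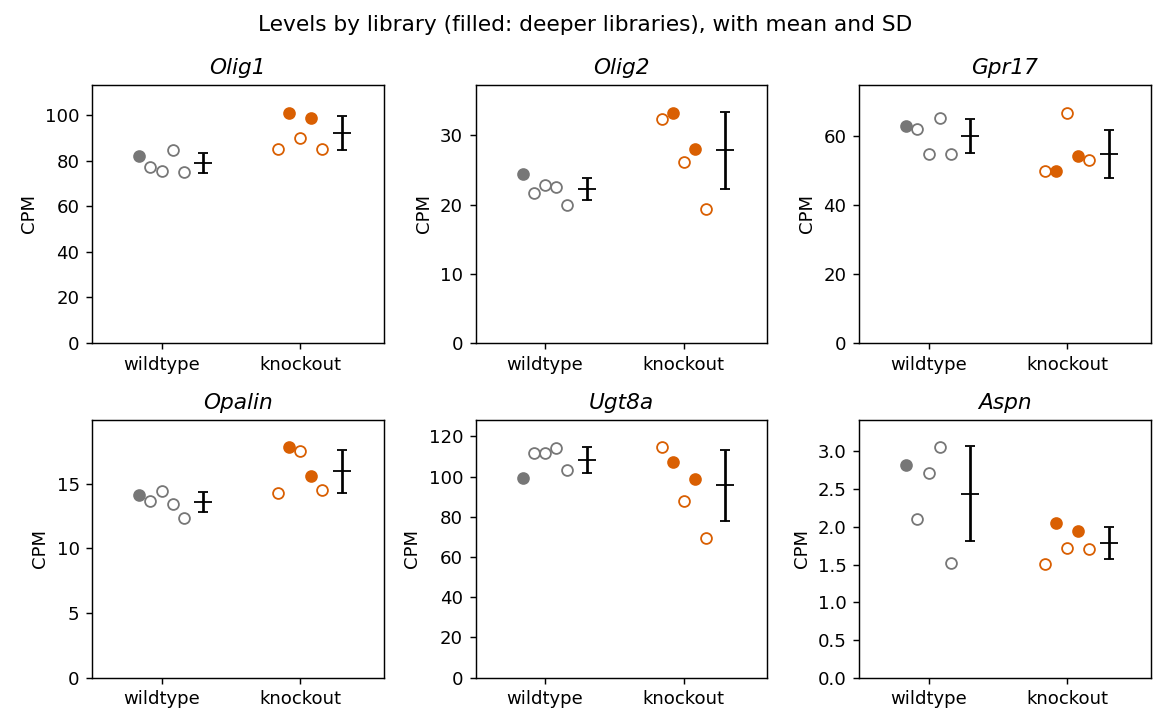
CPM of 6 members in each library (vertical axes start at 0), with wildtype in grey, knockout in orange, filled points for the 3 deeper libraries, and the mean with SD beside each group. All 5 Olig1 knockout points lie above wildtype, and in Olig2, Gpr17 and Ugt8a 1 knockout library lies far from the rest of its group.

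The 3 precursor genes differed by less than the spread between libraries. Cspg4 encodes the NG2 proteoglycan on the precursor surface, and it is also made by the mural cells of vessels. It had 20.7, 17.5, 17.0, 19.5 and 16.9 CPM in wildtype and 21.1, 20.5, 20.6, 20.6 and 16.0 CPM in knockout. Knockout replicates 1 to 4 lay close together near the top of the wildtype range, and replicate 5 was the lowest of all 10. The log2 fold change was 0.10 (edgeR adjusted p 0.62). The summed level of 8 mural-cell genes, Cspg4 itself among them, was 154 to 183 CPM in wildtype and 164 to 187 CPM in knockout. That sum is therefore not separate from Cspg4, and the part of mural cells in the Cspg4 values was not tested. Vcan, the matrix proteoglycan versican, had 36.6 to 43.4 CPM in wildtype and 37.6 to 45.6 CPM in knockout, with a log2 fold change of 0.05. Lhfpl3, a transmembrane protein gene used as a precursor marker, had 8.02 to 9.81 and 8.22 to 9.28 CPM, with a log2 fold change of 0.02. All 3 were positive, but Vcan and Lhfpl3 were negative when fitted to the 7 shallower libraries, at -0.04 and -0.014.

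Of the 6 genes of newly formed cells, 3 had positive and 3 had negative log2 fold changes, with a median of 0.02. Gpr17 encodes a receptor that rises as precursors commit and is switched off before myelination. It had 63.0, 62.0, 54.8, 65.3 and 54.95 CPM in wildtype and 50.0, 49.9, 66.9, 54.3 and 53.2 CPM in knockout. Knockout replicate 3 was the highest of all 10 libraries, and the other 4 knockout libraries were below every wildtype library. The log2 fold change was -0.14 (SE 0.078, edgeR adjusted p 0.41), and without knockout replicate 3 it was -0.22 (edgeR adjusted p 0.062). In the table's coordinates Gpr17 lies inside the span of Lims2, and reads of overlapping genes may not be told apart. Over all libraries Lims2 had 983 counts and Gpr17 had 7269.

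Tcf7l2 encodes a transcription factor of Wnt signalling. It had 39.1, 31.0, 34.6, 33.4 and 30.6 CPM in wildtype and 33.7, 36.8, 45.2, 37.8 and 35.4 CPM in knockout, where replicate 3 was again the highest of all 10. Its log2 fold change was 0.15 (edgeR adjusted p 0.42) and was 0.09 without that library. Bcas1, which marks cells that have just begun to myelinate, had 120 to 140 CPM in wildtype and 116 to 148 CPM in knockout, with a log2 fold change of 0.05 (0.11 without knockout replicate 3). Knockout replicate 3 had the lowest Bcas1 and Enpp6 levels of all 10 libraries, 116 and 6.86 CPM, so it was at opposite ends for members of the same stage. Enpp6, a choline phosphodiesterase of new oligodendrocytes, had a log2 fold change of -0.0047. Itpr2, a calcium release channel of the endoplasmic reticulum, had 0.05, and Bmp4, a secreted inhibitor of differentiation that had only 1.97 to 3.50 CPM, had -0.16 (SE 0.17).

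The 20 myelinating genes had a median log2 fold change of -0.016, with 9 positive and 11 negative. With 1 library left out that median ran from -0.037 (without knockout replicate 4) to 0.012 (without knockout replicate 3), so its sign rests on single libraries. Mbp, myelin basic protein, joins the inner membrane faces of compact myelin. It had 2977, 2805, 2611, 2884 and 2678 CPM in wildtype and 2786, 3075, 2417, 3181 and 2583 CPM in knockout. The highest and the lowest of the 10 libraries were both knockout libraries, and the log2 fold change was 0.0093 (SE 0.067, edgeR adjusted p 0.97).

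Opalin, a membrane glycoprotein gene of mature oligodendrocytes at 41136964 to 41151603 on chromosome 19 of the table, had the largest difference of the 20. It had 14.1, 13.6, 14.4, 13.4 and 12.4 CPM in wildtype and 14.2, 17.8, 17.5, 15.6 and 14.5 CPM in knockout. Knockout replicates 2 to 5 were above the highest wildtype library, replicate 5 by less than 0.1 CPM, and replicate 1 was within the wildtype range. The means were 13.6 ± 0.793 and 16.0 ± 1.66 CPM (SD, n = 5 each), with a log2 fold change of 0.24 (SE 0.081) and an edgeR adjusted p of 0.18.

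Other proteins of the sheath lay close to wildtype. Mobp, a second basic protein of compact myelin, had 804 to 902 CPM in wildtype and 779 to 1054 CPM in knockout, with a log2 fold change of 0.06 that was -0.0099 without knockout replicate 5. Cnp, a phosphodiesterase that keeps cytoplasmic channels open in myelin, had 352 to 385 CPM in wildtype and 353 to 424 CPM in knockout (0.07). It overlaps Dnajc7 in the table, which had 18302 counts over all libraries against 49786 for Cnp. Mag, the adhesion protein that faces the axon, had a log2 fold change of 0.05 and Mog, on the outer surface of the sheath, -0.07. Mal, a membrane-raft protein, had -0.06, and Cldn11, the claudin of myelin's tight junctions, had -0.012. The cytoskeletal protein gene Ermn had -0.08 and the tetraspanin gene Tspan2 had -0.04. The edgeR adjusted p of these 8 genes was at least 0.520.

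The 2 lipid enzymes had their lowest levels in the same library. Ugt8a makes galactocerebroside, the main glycolipid of myelin. It had 99.4, 112, 112, 114 and 103 CPM in wildtype and 115, 107, 87.9, 98.7 and 69.6 CPM in knockout. Knockout replicates 5, 3 and 4 were the 3 lowest of the 10 and replicate 1 was the highest, and the log2 fold change was -0.17 (SE 0.099, edgeR adjusted p 0.45). Fa2h adds a hydroxyl group to the fatty acids of those lipids. It had 55.6, 55.8, 51.5, 53.8 and 45.6 CPM in wildtype and 51.1, 62.1, 45.8, 59.2 and 34.1 CPM in knockout, with a log2 fold change of -0.03 that was 0.07 without knockout replicate 5.

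Of the remaining myelinating genes, Gjb1 and Gjc3 encode connexins 32 and 29 of the myelin sheath. Gjb1 had 12.4 to 19.2 CPM in wildtype and 11.2 to 20.04 CPM in knockout (0.15), and Gjc3 had 71.5 to 75.9 and 65.2 to 76.8 CPM (-0.03), with the smallest residual SD of the members, 0.066. Myrf, the transcription factor that turns on myelin genes, had 77.8 to 91.3 and 75.9 to 92.1 CPM (-0.020). Car2, carbonic anhydrase II, had 218 to 246 CPM in wildtype, and 219 to 243 CPM in 4 knockout libraries but 174 CPM in replicate 5. Qdpr, which regenerates tetrahydrobiopterin, had 148 to 169 CPM in wildtype and 135 CPM in the same knockout library (log2 fold change over all 10 libraries 0.0041). Ppp1r14a, an inhibitor of myosin phosphatase, had 9.38 to 10.2 CPM in knockout replicates 1, 2 and 4 and 5.80 and 5.62 CPM in replicates 3 and 5. Wildtype, at 7.12 to 9.51 CPM, lay above the low pair and overlapped the other 3.

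Several myelinating members are also made by cells outside the lineage, among them Apod, Enpp2, Car2 (choroid plexus) and Ppp1r14a (smooth muscle). Apod, a lipid-binding apolipoprotein also of meningeal and perivascular cells, had 133 to 157 CPM in wildtype and 127, 140, 115, 145 and 190 CPM in knockout (0.0072). Without knockout replicate 5 its log2 fold change was -0.11. Enpp2, the secreted enzyme autotaxin, is also made by the choroid plexus, and had 622 to 719 and 596 to 677 CPM (-0.06). The summed level of 10 choroid plexus genes was 578 to 682 CPM in wildtype and 552 to 678 CPM in knockout. All 12 meningeal fibroblast genes had negative log2 fold changes. Of them edgeR called 0, beside 1.18% of all genes, and gave 5 an unadjusted p under 0.05, beside 14.8% of all genes. Their summed levels were 280 to 319 CPM in wildtype and 198 to 286 CPM in knockout. The part of these cells, and of the mural cells above, in the Apod, Enpp2, Car2, Ppp1r14a and Vcan values was not tested.

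Aspn, the asporin gene, had 2.82, 2.10, 2.71, 3.05 and 1.52 CPM in wildtype and 1.51, 2.05, 1.71, 1.95 and 1.71 CPM in knockout. Every knockout library was below 4 of the 5 wildtype libraries, and wildtype replicate 5 lay at the bottom of the knockout range. The log2 fold change was -0.43 (SE 0.18, edgeR adjusted p 0.28). Connective tissue cells make asporin, and the part of the meningeal genes in this value was not tested.

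Compared per length, the stages had different median levels, but these are levels of different genes, and their ranges overlapped in part. As CPM per kilobase of exon (GENCODE vM21 lengths, mean of all 10 libraries), the myelinating genes had a median level of 57.8 and ran from 5.90 for Ppp1r14a to 344.7 for Mbp. Below Mbp came Enpp2 at 194.7, Mobp at 185.4 and Cnp at 161.8 CPM per kilobase. The lineage factors had a median of 12.3, with Olig1 at 39.5 and Nkx2-2 at 1.36. The newly formed genes had a median of 5.44, where Bcas1 at 43.8 stood above the rest, and 2 of the 3 precursor genes, those with a length, were at 2.34 and 3.02. Transcripts per kilobase in a whole brain do not count cells.

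The balance between stages was compared as differences of mean log2 CPM within each library. Myelinating minus precursor genes came to 2.78 ± 0.083 in wildtype and 2.71 ± 0.068 in knockout (SD, n = 5 each). Myelinating minus newly formed genes came to 2.37 ± 0.042 and 2.37 ± 0.10, and newly formed minus precursor genes to 0.41 ± 0.079 and 0.35 ± 0.068. Without knockout replicate 3 the knockout values were 2.74 ± 0.044, 2.39 ± 0.11 and 0.35 ± 0.077 (SD, n = 4). The groups overlapped in all 3 differences, with and without that library, and over all 10 libraries each difference between group means was smaller than the larger SD. By stage alone, wildtype and knockout libraries averaged 4.50 ± 0.096 and 4.60 ± 0.18 log2 CPM for the lineage factors, 4.23 ± 0.057 and 4.28 ± 0.075 for precursor genes, 4.64 ± 0.059 and 4.62 ± 0.062 for newly formed genes, and 7.01 ± 0.047 and 6.99 ± 0.12 for myelinating genes. The knockout SD was the larger for all 4.

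**Figure D3:**
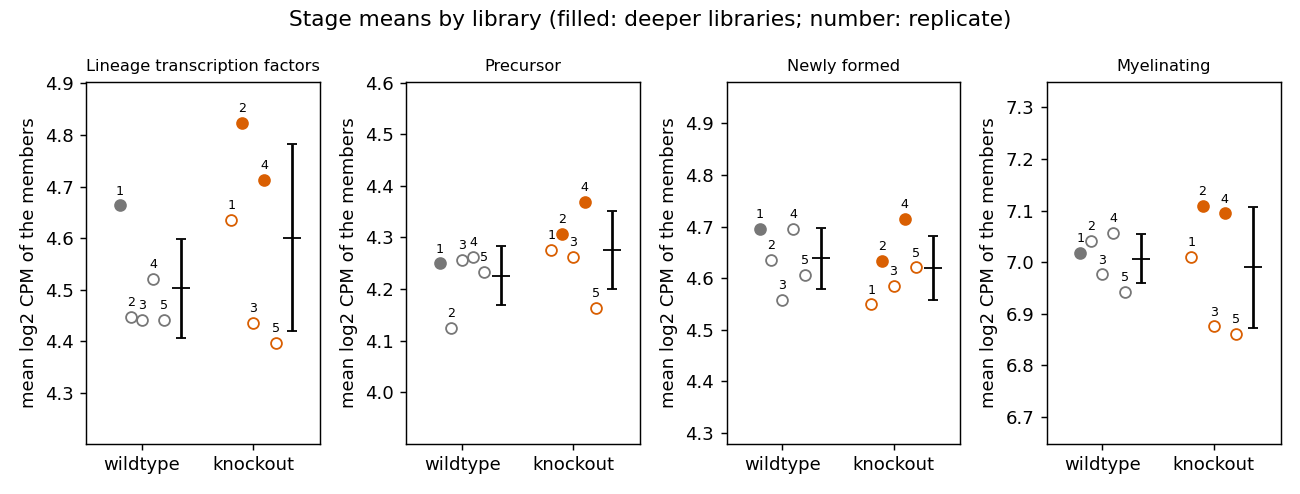
Mean log2 CPM of the lineage factor, precursor, newly formed and myelinating genes in each library, wildtype and knockout side by side, with the group mean and SD; each panel spans the same range of the vertical axis, which does not start at 0. The genotypes overlap in every panel, and the knockout libraries are spread more widely for the lineage factors and the myelinating genes.

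Single knockout libraries took most of the extreme places. Over the 34 members, knockout replicates 3 and 5 were each the lowest of the 10 libraries for 11 genes. Knockout replicate 2 was the highest for 8 and knockout replicate 4 for 6. The same counts over all genes are not given here, so whether these places are particular to the members was not tested. Among the 20 myelinating genes, replicate 5 was below the mean of the rest of its group for 16, with a median log2 difference of -0.15 and a range from -0.67 to 0.53, and replicate 3 was below it for 15, with a median of -0.15. Of the 20, 12 were below the rest of the group in both libraries, 3 in replicate 3 only and 4 in replicate 5 only. Ugt8a, Fa2h, Car2 and Qdpr had their lowest level in replicate 5, and Mbp, Gjb1, Apod and Enpp2 in replicate 3. Mobp and Apod, at 1054 and 190 CPM, were highest of all libraries in replicate 5, so that library was not low throughout.

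**Figure D4:**
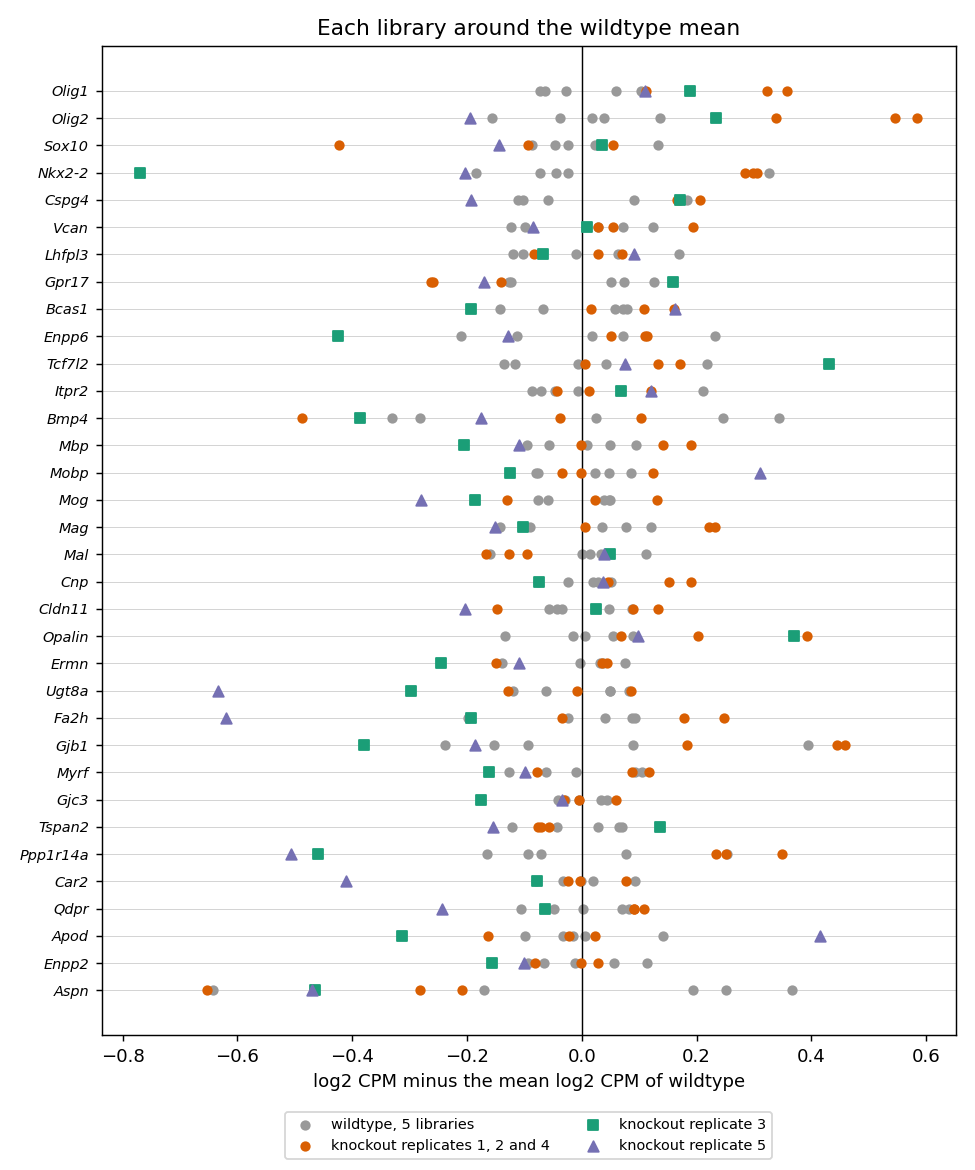
Log2 CPM of every library minus the wildtype mean, 1 row per member, with wildtype in grey, knockout replicates 1, 2 and 4 in orange, knockout replicate 3 as green squares and knockout replicate 5 as purple triangles. Replicates 3 and 5 take most of the lowest places, while replicate 5 is the highest for Mobp and Apod.

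The members' total spread between libraries was close to that of all genes, but counting alone gave the members less of it. Their median residual SD was 0.130 on the log2 scale, beside 0.125 over all genes, and their median counting SD was 0.051, beside 0.087.

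The direction of the myelinating genes differed between the deeper and the shallower libraries. Among the 3 deeper libraries, 1 wildtype and 2 knockout, 17 of the 20 had a higher log2 level in knockout, with a median difference of 0.06, and so did 7525 of all 14526 genes. Among the 7 shallower libraries, 4 wildtype and 3 knockout, 3 of the 20 did, with a median of -0.08, beside 7312 of all genes. Without knockout replicate 3 the shallower libraries gave 6 of 20 and a median of -0.06, beside 7334 of all genes. Both signs together, higher in the deeper and lower in the shallower libraries, were found for 14 of the 20 genes and for 2962 of all 14526. Olig1, Olig2 and Opalin were higher in knockout in both classes. The deeper class has 1 wildtype library and the shallower class holds knockout replicates 3 and 5, so depth and these libraries cannot be told apart here.

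**Figure D5:**
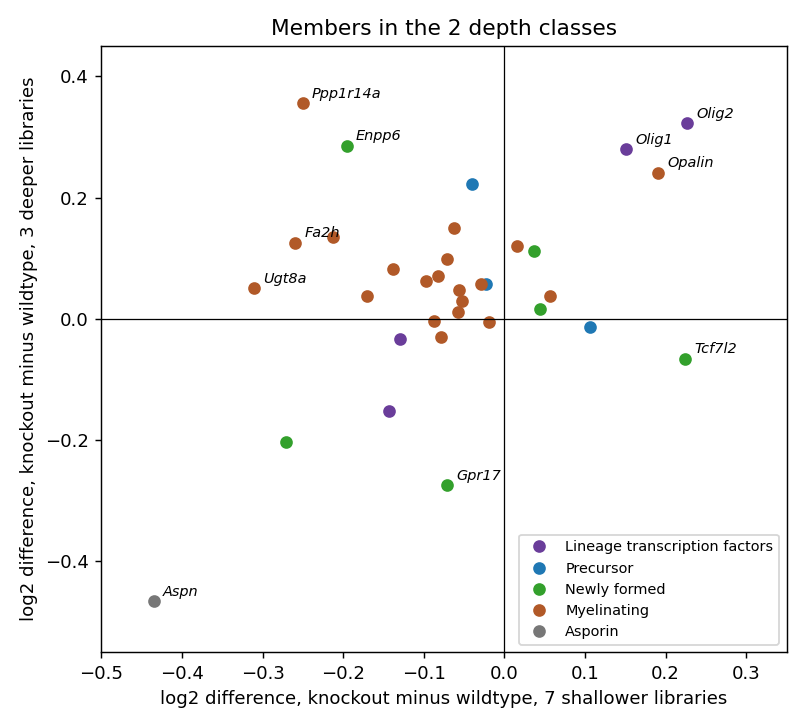
Log2 difference between knockout and wildtype among the 3 deeper libraries (vertical axis) against the same among the 7 shallower libraries (horizontal axis), 1 point per member, coloured by role. Most myelinating genes lie at the upper left, and Olig1, Olig2 and Opalin lie in the upper right.

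Among the members, base composition went with depth as well. Of the 17 members with a transcript GC content of at least 51.6%, the members' median, 16 had a higher level in the deeper than in the shallower libraries. Their median log2 difference was 0.20. Of the 16 members below it, 11 did, with a median of 0.02, and the median of all genes was 0.0064. Its part in the differences between genotypes was not tested.

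Further genes of the lineage were taken from lists made for these stages, and none of them passed either. Of 76 listed, 71 were tested, and edgeR called 0, with 5 at an unadjusted p under 0.05, 3 higher and 2 lower. Over all genes edgeR called 1.18%, and 14.8% had an unadjusted p under 0.05, 6.74% with higher values in knockout. For the 71, the median log2 fold change was 0.02, with 40 positive and 31 negative. Pdgfra, the growth factor receptor that defines precursors, had 52.8, 57.0, 53.3, 56.2 and 50.3 CPM in wildtype and 64.4, 58.8, 74.3, 61.9 and 51.9 CPM in knockout. Knockout replicates 1 to 4 were above every wildtype library and replicate 5 was within the wildtype range, as for Olig2 in the first 4 but not the last. Its log2 fold change was 0.20 (edgeR adjusted p 0.22). The 15 other precursor genes had 11 positive and 4 negative values with a median of 0.06, and Dscam, a cell adhesion gene, had 0.14 (edgeR adjusted p 0.24).

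Erbb3, a neuregulin receptor that Schwann cells and oligodendrocytes share, had the smallest p of these lists. It had 25.2, 23.6, 21.2, 21.99 and 24.5 CPM in wildtype and 17.9, 20.5, 21.0, 19.1 and 18.3 CPM in knockout, so the groups did not overlap. The log2 fold change was -0.27 (SE 0.069, edgeR adjusted p 0.076). Of the 6 Schwann cell genes listed, 3 had enough counts to be tested. Pmp2, a lipid-binding protein gene of peripheral myelin, had 0 or 1 count per library. Egr2, a Schwann cell factor that is also an immediate early gene of neurons, was the gene of this list that was called (edgeR adjusted p 0.000151). It had 9.86 to 13.2 CPM in wildtype and 2.78 to 6.59 CPM in knockout. The other 2 tested, Prx and Ncmap, had log2 fold changes of -0.11 and 0.04 (edgeR adjusted p 0.84 and 0.96). The summed level of the 6 was 15.2 to 18.4 CPM in wildtype and 8.18 to 10.1 CPM in knockout, a difference that lay in Egr2, and its part in the Erbb3 value was not tested. For Igf1, a growth factor for the lineage, the value was -0.20 on the log2 scale (edgeR adjusted p 0.34).

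In the other lists, Gal3st1, which sulphates galactocerebroside, had 0.26 (edgeR adjusted p 0.35), and Tmem125, a membrane protein gene, had 0.28 (edgeR adjusted p 0.40). Lims2, an adaptor of integrin signalling that overlaps Gpr17, had 0.30 (edgeR adjusted p 0.29), and Prom1, prominin 1, had 0.10 (edgeR adjusted p 0.43). Aspa, the aspartoacylase of oligodendrocytes that splits N-acetylaspartate, had 25.8 to 32.1 and 24.1 to 32.3 CPM (-0.02). The summed levels of other cells in the same libraries were 3700 to 4059 CPM in wildtype and 3752 to 4547 CPM in knockout for 8 astrocyte genes. For 10 microglial genes, all with positive log2 fold changes, they were 267 to 286 and 305 to 359 CPM. Of these 10, edgeR called 2 as higher in knockout, C1qb and C1qc, beside 0.213% of all genes.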

How the data were processed

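RNA from 10 mouse brains, 5 wildtype and 5 knockout, was counted per Ensembl gene. The deposited table holds the authors' raw counts, not normalized, and the submitters' processing notes name TopHat2 2.0.6, HTSeq, edgeR and limma. Strand setting, annotation and genome build are not given in the sources used here, and 14 of the 34 members overlap another gene of the table. A further 10 columns of values per library were not used.

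The analysis used edgeR 4.0.16 under R 4.3.3. The filter was filterByExpr with a minimum count of 10 and a total of 15, and 14526 genes passed it. TMM gave scaling factors of 0.982 to 1.01, and genotype was the only term of a quasi-likelihood model tested over all genes, with Benjamini-Hochberg adjustment. Levels are CPM scaled by TMM, log2 CPM used a prior count of 2, and the SE was derived from the F statistic. The common biological coefficient of variation was 0.071. Chi-square per degree of freedom between replicates was 1.30 to 12.2, so no library was a copy of another. Tested on simulated counts of this comparison (14443 genes), the fit found 77 of 100 genes given a 1.5-fold change and 98 of 100 given 2-fold, and called 5 of 14326 left as they were.

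The members and lists were chosen with earlier results of these data known. The genes named are all 34 members, Abcc5, and in each wider lineage list the called genes and the 2 smallest p-values; other lists are named where a result turns on them, and Aspa and Pmp2 were added by name for their roles. Some genes of the lists are not reported here. Alternatives were DESeq2 1.42.0 size factors and Wald test, upper-quartile scaling, no count filter, at least 1 CPM in 5 libraries, limma-voom (limma 3.58.1), a replicate block, only the 7 shallower libraries, a term for depth class, leaving out each library, a threshold of 0.1 and, chosen after seeing the data, matching by symbol only and the stage differences and shallower libraries without knockout replicate 3.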

Additional observations from a re-analysis of the deposited data

Results flagged for a closer look

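In each group of 5 libraries, a library was picked out where its gap to the nearest other took more than 0.71 of the group's range. Of 96 groups examined, 7 were picked, and chance picks about 1 in 20, or 4.8. Among members, Nkx2-2 was 4.23 CPM in wildtype replicate 1 and 2.97 to 3.32 CPM in the rest of its group. Cspg4 was 16.0 CPM in knockout replicate 5, below 20.5 to 21.1 CPM. Gpr17 was 66.9 CPM in knockout replicate 3, above 49.9 to 54.3 CPM. Itpr2 was 37.4 CPM in wildtype replicate 4, above 30.4 to 32.2 CPM.

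The precursor genes had a mean log2 CPM of 4.13 in wildtype replicate 2, below 4.23 to 4.26 in the other wildtype libraries. In knockout replicate 3 the summed microglial genes reached 358.7 CPM, above 305 to 320 CPM, and the summed cerebellar genes came to 222.9 CPM, below 1522 to 1751 CPM. The causes were not tested.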

How the results depend on the processing

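Of 306 member fold changes under the alternatives that leave out no single library, 286 kept their sign and side of the threshold, 19 changed sign and 1 passed it. The number of genes called was 171, and it was 259 under DESeq2's Wald test, 90 with a replicate block, 31 in the 7 shallower libraries and 373 at a threshold of 0.1. Members called were 0, with 1 (Olig1) under DESeq2's Wald test and 1 at a threshold of 0.1. The precursor median was -0.014 in the shallower libraries. Over its alternatives the Olig1 adjusted p ran from 0.038 to 0.35. The sign changed under upper-quartile scaling for Enpp6 (0.013) and Cldn11 (0.0049), where the median of all genes was 0.021, and under limma-voom for Enpp6 (0.018) and Apod (-0.010). With the replicate block it changed for Qdpr (-0.0014) and Apod (-0.010). In the shallower libraries it changed for Nkx2-2 (-0.0625), Vcan (-0.0434), Lhfpl3 (-0.0144), Mbp (-0.0806), Mag (-0.0663), Gjb1 (-0.0150), Ppp1r14a (-0.226) and Qdpr (-0.0683). With depth class as a term it changed for Nkx2-2 (-0.0495), Enpp6 (0.0015), Mbp (-0.0381), Mag (-0.0025) and Qdpr (-0.018). The cause was not tested.

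With each library left out in turn, 76 genes (without wildtype replicate 4) to 341 (without knockout replicate 3) were called. The median log2 fold change without knockout replicate 3 was 0.069 for precursor, 0.057 for newly formed, 0.012 for myelinating and 0.20 for lineage factor genes, and the newly formed median turned negative without wildtype replicate 1 (-0.015). Without knockout replicate 3 the values were 0.17 for Nkx2-2, 0.24 for Gjb1, 0.17 for Ppp1r14a and 0.11 for Bcas1. Members called ran from 0 to 1: Olig1 without knockout replicate 3 and Olig2 without knockout replicate 5. Sign changes occurred in 32 of 340 values, with ranges of -0.111 to 0.0727 for Apod, -0.0534 to 0.0273 for Cldn11, -0.0745 to 0.0616 for Enpp6, -0.123 to 0.0672 for Fa2h, -0.0041 to 0.0561 for Lhfpl3, -0.0395 to 0.0601 for Mbp, -0.0099 to 0.11 for Mobp, -0.0593 to 0.014 for Myrf, -0.0055 to 0.20 for Nkx2-2, -0.026 to 0.17 for Ppp1r14a and -0.024 to 0.0552 for Qdpr. Over both kinds of alternative 20 members kept their sign. Same-numbered libraries did not pair: 0 of 5 correlations of their deviations were over 0.1, and 3 of 10 libraries matched their own number best. Depth limited Aspn, Bmp4 and Nkx2-2 most, since their counts are the lowest of the members.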
